A study of Mus musculus with 8 samples.

Results

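The genes described here encode the enzymes that remove acetyl groups from histones, the enzymes that add them, and the partner proteins that hold deacetylases in corepressor complexes. They were taken from a fixed list of 36 genes by gene symbol: 17 deacetylases (Hdac1 to Hdac11, Sirt1, Sirt2, Sirt3, Sirt5, Sirt6 and Sirt7), 10 acetyltransferases and 9 corepressor partners. Every gene of the list had at least 1 probe set with a single gene name, 75 probe sets in all of the 45101 on the array. A probe set was tested where 2 or more mice of either group had it brighter than the array median, which held for 63 probe sets of 35 genes and not for Hdac11. RNA came from whole blood drawn on Day 7 from female C57BL/6J mice, which had been 6 to 8 weeks old when obtained, before they were left to acclimate. The RST group (4 mice) had been held in tubes for 6 h each day (restraint stress, RST), and the control group (4 mice) had been left in their cages without food and water in the same hours. Each mouse had an array of its own, and the mice were taken as the replicates. By the paper, whole cages were assigned to RST or control, and the cage of each mouse was not given. Mice of a group may therefore have shared a cage, which the tests do not allow for. The RNA of all blood cell types was measured together. No drug, transgene or mutation was used in these groups. For each gene the brightest of its tested probe sets is given. The question was whether these genes differed between RST and control mice, and whether deacetylases differed from acetyltransferases.

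Acetyl groups on the lysines of histone tails loosen chromatin and are read by bromodomain proteins, and their removal goes with a closed, silent state. Of the zinc-dependent deacetylases (HDACs), most of class I work in the nucleus within large complexes. Among these complexes are NuRD, SIN3 and CoREST, which bring the enzymes to DNA through other proteins. The HDACs of class IIa move between nucleus and cytoplasm, those of class IIb act mainly outside histones, and the sirtuins use NAD+ as a cofactor. Acetyltransferases include the coactivators Ep300 and Crebbp, the GNAT family (Kat2a, Kat2b) and the MYST family (Kat5 to Kat8). In blood formation the class I enzymes and CoREST act with factors such as GFI1B to silence genes while erythroid cells mature.

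Expression is given as the deposited log2 level, on which a difference of 1 is a doubling, and fold changes are RST minus control. The arrays differed in their overall level. The median of all 11762 tested genes lay 0.24 lower in RST than in control mice, and 67.6% of them had a lower mean there. RST mouse 4 was the lowest of the 8 mice for 46.8% of all genes and for 23 of the 35 listed genes, while control mouse 2 held the highest value in 12 and control mouse 1 in 8. Control mice 1 and 2 also had the lowest hybridization controls (mean log2 level 11.93 and 11.90, against 12.35 to 12.74 in the other mice).

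Most of these genes had lower mean levels in the blood of RST mice. A lower mean was seen for 28 of the 35 genes, the exceptions being Hdac6, Sirt2, Sirt5, Crebbp, Mta3, Sin3b and Rbbp4, and the median log2 fold change was −0.50 against −0.24 for all genes. In whole blood, fewer cells of a type and less RNA per cell cannot be told apart. A gene was called where its fold was beyond 1.5 and its unadjusted p below 0.05, and on this rule 7 genes were called lower (Hdac1, Hdac2, Sirt1, Sirt6, Sirt7, Rcor1 and Rbbp7) and 1 was called higher (Mta3). That is 8 of 35, or 22.9%, where the same rule called 15.6% of all genes, 12.8% lower and 2.8% higher. None passed an adjusted p under 0.05 (limma, Benjamini-Hochberg over 25084 probe sets), and nor did any other gene, so no single difference is established by this test. The smallest adjusted p among the listed genes was 0.32, and in none of the 20 alternatives run did a listed gene pass, although 36 probe sets of the array did with a trended and robust prior. The groups did not overlap for 5 of the 35 genes (lower for Hdac1, Hdac2, Sirt7 and Sap30, higher for Mta3), against 8.94% of all genes, 6.57% lower and 2.37% higher. The higher share among the listed genes was not seen when RST mouse 4, control mouse 1 or control mouse 2 was left out. Without RST mouse 4, 4 listed genes were called (Hdac2, Sirt7, Mta3 and Sin3b), or 11.4%, when 12% of all genes were. Without control mouse 1 or control mouse 2 only Sirt7 and Mta3 were called, or 5.71%, when 7.44% and 7.57% of all genes were, and without both of those controls none was, when 3.11% of all genes were. Leaving out RST mouse 1 left 5 of 34 genes called, or 14.7%, when 10.7% of all genes were. After quantile normalization the number of genes with a lower mean was 20, when 53.9% of all genes were lower. The share of all genes called lower was then 7.44% of 12.8% called, and with scaling to the control probe sets 21.8% of 23%.

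**Figure D1:**
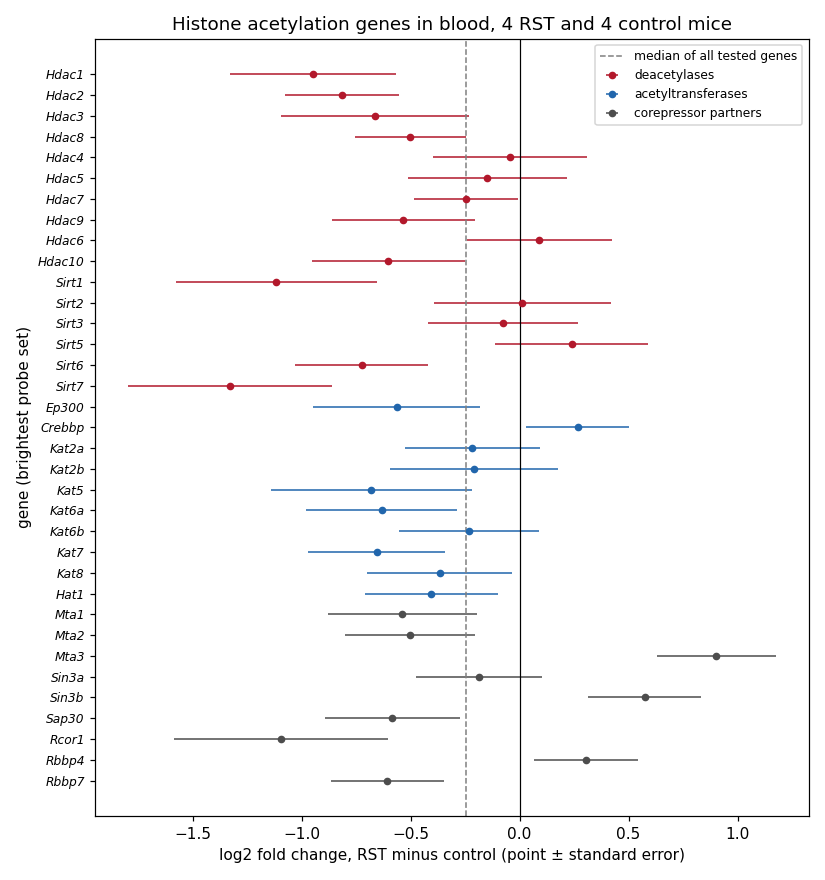
Log2 fold change (RST minus control, x axis) of the 35 tested genes (y axis), each at its brightest probe set, as points with the limma standard error, colored by class. The dashed line is the median of all tested genes at −0.24, and Mta3 at 0.90 and Sirt7 at −1.33 are the ends of the range.

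The class I deacetylases, most of which are catalytic subunits of corepressor complexes, all had lower means in RST mice, as did 67.6% of all genes. Hdac1, the main nuclear deacetylase together with Hdac2, had log2 levels of 7.23, 6.99, 6.86 and 6.64 in control mice 1 to 4 and of 6.07, 6.54, 6.53 and 4.80 in RST mice 1 to 4. All 4 RST mice lay below all control mice, although RST mice 2 and 3 lay close under control mouse 4, and RST mouse 4 was far below the rest. The fold change on the log2 scale was −0.95 (standard error 0.38), or 1.93-fold lower (limma adjusted p = 0.34, and p = 0.029 in a two-sided exact permutation test, the smallest p that 4 mice against 4 allow). Without RST mouse 4 it was −0.55. Every gene whose groups do not overlap has an exact permutation p of 0.029, unadjusted, so this p only restates that the groups were apart.

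Hdac2, its close relative, had levels of 6.41, 5.99, 5.89 and 6.04 in control mice and of 5.27, 5.64, 4.96 and 5.21 in RST mice. Here the groups were also apart, and RST mouse 4 was not the lowest. Its log2 fold change of −0.81 (standard error 0.26, 1.76-fold lower, limma adjusted p = 0.32) stayed between −0.94 and −0.70 when any single mouse was left out and that probe set was kept. Another probe set of Hdac2, at −0.25, became the brightest in some settings, and then gave 0.044 after quantile normalization and 0.032 without RST mouse 3. Kept to the first probe set, the value after quantile normalization was −0.47. Hdac3, the catalytic subunit of the NCoR complex, was at −0.66 (standard error 0.43) and Hdac8, a class I enzyme that also acts on cohesin, at −0.50 (standard error 0.25). Both overlapped between the groups.

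The medians of the class II enzymes lay nearer to the median gene, at −0.20 for class IIa and −0.26 for class IIb against −0.74 for class I, although Hdac9 and Hdac10 did not. Hdac7, an enzyme of class IIa known from thymocytes and endothelium, had levels of 6.10, 6.00, 5.65 and 5.72 in control and of 5.60, 5.67, 5.70 and 5.53 in RST mice. RST mice 2 and 3 lay above control mouse 3. Its log2 fold change of −0.25 was close to that of the median gene, with a 95% interval from −0.77 to 0.28, and it was 0.11 after quantile normalization. Hdac4 (−0.044), Hdac5 (−0.15) and Hdac9 (−0.53), the other class IIa enzymes, which bind MEF2 factors, all overlapped between the groups. Hdac6, the tubulin deacetylase of class IIb, was at 0.090. Hdac10, which deacetylates polyamines, had levels of 4.66, 5.35, 3.68 and 4.55 in control and of 4.33, 3.66, 4.09 and 3.75 in RST mice (log2 fold change −0.60, standard error 0.35). Control mouse 3 lay among the RST mice, and the difference was −0.34 without control mouse 2 and −0.16 without control mice 1 and 2. Hdac11, the only class IV enzyme, had log2 levels of 2.12 to 2.70 in control and 2.02 to 2.59 in RST mice at its brighter probe set, below the median of every array, so its level could not be compared.

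With all mice kept, the calls among the sirtuins split by the cell compartment they are known for. The nuclear enzymes Sirt1, Sirt6 and Sirt7 were each called lower, when 12.8% of all genes were. Sirt2 (0.012), Sirt3 (−0.077) and Sirt5 (0.24), which act in cytoplasm or mitochondria, were not called. This grouping was made after the values were seen and was not tested. The split depended on the setting. Without RST mouse 4, control mouse 1 or control mouse 2, Sirt7 was the only sirtuin called. With the hybridization controls as a covariate none was. Sirt7, a nucleolar enzyme tied to ribosomal RNA synthesis, had the lowest fold change of the 35 genes. Its log2 levels were 7.14, 6.80, 6.10 and 5.99 in control mice and 5.41, 5.80, 5.80 and 3.71 in RST mice. The groups did not overlap, with RST mice 2 and 3 just under control mouse 4. The mean level was 2.51-fold lower, −1.33 on the log2 scale with a standard error of 0.47 (limma adjusted p = 0.32, two-sided exact permutation p = 0.029). It ran from −1.54 to −0.84 over all alternatives, and was −0.84 without RST mouse 4 and −0.87 without control mice 1 and 2.

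Sirt1, which deacetylates histones and many transcription factors, had levels of 5.95, 6.30, 5.44 and 4.84 in control and of 4.18, 5.34, 5.16 and 3.38 in RST mice. RST mice 2 and 3 lay above control mouse 4. The log2 fold change was −1.12 (standard error 0.46, limma adjusted p = 0.34, two-sided exact permutation p = 0.11), −0.74 without RST mouse 4 and −0.62 without control mice 1 and 2. Sirt6, a chromatin enzyme of DNA repair and glucose metabolism, had levels of 5.50, 5.35, 4.72 and 4.46 in control and of 4.35, 4.67, 4.05 and 4.07 in RST mice. Only RST mouse 2 reached the control range. Its log2 fold change was −0.72 (standard error 0.31, limma adjusted p = 0.35), and −0.31 without control mice 1 and 2. Sirt2, a cytoplasmic enzyme that acts on tubulin, had levels of 6.36, 6.39, 6.25 and 6.07 in control and of 6.59, 7.13, 6.42 and 4.97 in RST mice. RST mice 1 to 3 were above every control mouse and RST mouse 4 was far below them, so the mean difference of 0.012 (95% interval −0.87 to 0.90) became 0.45 without RST mouse 4.

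**Figure D2:**
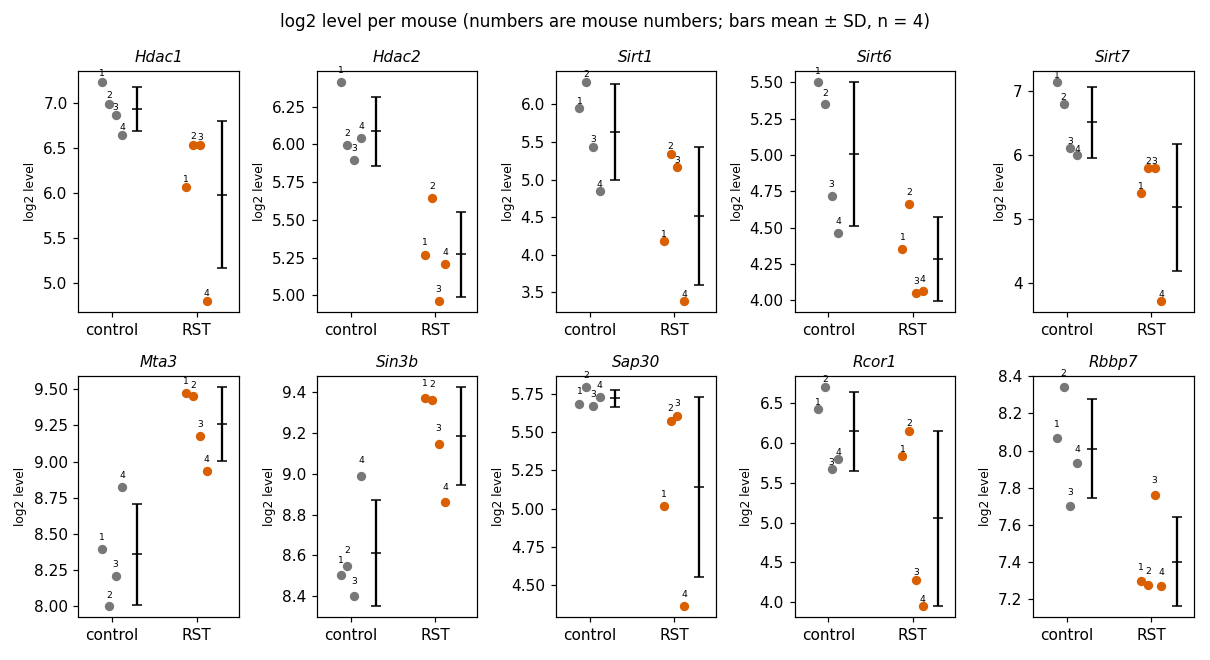
Log2 level (y axis) of the 10 genes with an unadjusted p under 0.05 or groups that do not overlap, 1 point per mouse labeled by its number, for 4 control (grey) and 4 RST mice (orange), with mean ± SD in black. RST mouse 4 is the lowest point for Hdac1, Sirt1, Sirt7, Sap30, Rcor1 and, narrowly, Rbbp7. Mta3 and Sin3b have higher means in RST mice.

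Of the 10 acetyltransferases, 9 had a mean that was lower in RST mice, and none was called, with a median log2 fold change of −0.39. That none was called depended on the setting, since Kat7 was called lower with no filter, with scaling to the control probe sets, without control mouse 3 and without RST mouse 3, and Kat6a with array weights, without control mouse 3 and without RST mouse 2. Crebbp, a coactivator of many transcription factors, had the higher mean. Its brightest probe set had levels of 9.77, 9.81, 9.41 and 9.71 in control and of 9.93, 10.03, 9.79 and 10.00 in RST mice. RST mouse 3 lay within the control range, and the other RST mice lay above it. Its log2 fold change was 0.27 (standard error 0.24, limma adjusted p = 0.61). Its other probe sets were at 0.45, −0.76 and −0.084, and the mean over all of them was at −0.034. Ep300, its close relative, was at −0.56 (standard error 0.38), with levels of 7.19, 7.34, 6.40 and 6.23 in control and of 6.22, 6.78, 6.60 and 5.30 in RST mice. The groups overlapped, and RST mouse 4 was the lowest.

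The GNAT enzymes were close to the median gene. Kat2b (PCAF) had levels of 6.94, 6.70, 6.39 and 7.09 in control and of 6.84, 7.42, 6.54 and 5.47 in RST mice. RST mouse 2 was the highest and RST mouse 4 the lowest of all mice, and the fold change of −0.21 became 0.16 without RST mouse 4 and 0.12 after quantile normalization. Kat2a (GCN5), the catalytic subunit of the SAGA complex, was at −0.22 (standard error 0.31). Of the MYST enzymes, Kat6a (MOZ), which hematopoietic stem cells depend on, had levels of 8.03, 7.75, 6.78 and 7.12 in control and of 6.54, 7.39, 6.87 and 6.34 in RST mice. The groups overlapped at a log2 fold change of −0.63 (standard error 0.35, limma adjusted p = 0.42), which was −0.16 without control mice 1 and 2. Kat7 (HBO1), an enzyme of DNA replication origins, was at −0.66 (standard error 0.32) and Kat5 (TIP60), which acts in DNA repair, at −0.68 (standard error 0.46). Kat8 (MOF) was at −0.37 and Kat6b at −0.23. Hat1, which acetylates newly made histones, had levels of 6.94, 6.40, 6.91 and 7.00 in control and of 6.37, 5.78, 7.00 and 6.50 in RST mice (log2 fold change −0.40, standard error 0.31). Control mouse 2 and RST mouse 2 were the low mice of their groups, and the difference was −0.19 without RST mouse 2 and −0.089 after quantile normalization.

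The corepressor partners went both ways. Mta3, 1 of 3 related scaffold subunits of the NuRD complex, was the only gene of the list called higher. Its log2 levels were 8.40, 8.00, 8.21 and 8.82 in control mice and 9.48, 9.45, 9.18 and 8.93 in RST mice. Every RST mouse lay above every control mouse, with RST mouse 4 nearest to control mouse 4. The mean level was 1.87-fold higher, 0.90 on the log2 scale with a standard error of 0.27 (limma adjusted p = 0.32, two-sided exact permutation p = 0.029). It ran from 0.52 with the mean of both tested probe sets to 1.06 without control mouse 4, and stayed above 0 in all 20 alternatives. Where a single mouse was left out, the sign was fixed in advance, because the groups do not overlap. The other tested probe set of Mta3 was at 0.13, with overlap between the groups, and an untested one below the filter was at −0.040. Mta1 (−0.54, standard error 0.34) and Mta2 (−0.50, standard error 0.30), the other scaffolds of the family, had lower means and overlapped between the groups.

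Sin3b and Sin3a are the scaffolds of the SIN3 complexes. Sin3b had levels of 8.50, 8.55, 8.40 and 8.99 in control and of 9.37, 9.36, 9.15 and 8.86 in RST mice. Only RST mouse 4 and control mouse 4 kept the groups from being apart. The mean was 1.49-fold higher, just under the fold threshold, at a log2 fold change of 0.57 with a standard error of 0.26 (limma adjusted p = 0.36, two-sided exact permutation p = 0.057). A probe set at 0.65 did not overlap between the groups, another was at 0.55, and a further one was at −0.37. Sin3a was at −0.19 (standard error 0.29). Sap30, which links deacetylases to SIN3, had levels of 5.69, 5.80, 5.67 and 5.73 in control mice, a narrow range, and of 5.01, 5.58, 5.61 and 4.36 in RST mice. RST mice 2 and 3 lay just under the control mice, and RST mice 1 and 4 further below. Its log2 fold change was −0.58 (standard error 0.31, limma adjusted p = 0.41), and −0.32 without RST mouse 4.

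Rcor1 (CoREST), the partner of the demethylase Kdm1a, had levels of 6.42, 6.70, 5.67 and 5.79 in control and of 5.83, 6.16, 4.28 and 3.95 in RST mice. RST mice 1 and 2 lay inside the control range and RST mice 3 and 4 lay far below it. This was −1.09 on the log2 scale (standard error 0.49, limma adjusted p = 0.36, two-sided exact permutation p = 0.17), and −0.73 without RST mouse 4. The other probe sets were at −1.15, with overlap, and at −0.24. Rbbp4 and Rbbp7 are related histone-binding proteins shared by the NuRD and SIN3 complexes. Rbbp7 had levels of 8.07, 8.34, 7.70 and 7.93 in control and of 7.30, 7.28, 7.76 and 7.27 in RST mice. RST mouse 3 alone lay in the control range, and the others were close together below it. This amounted to −0.61 on the log2 scale (standard error 0.26, 1.52-fold lower, limma adjusted p = 0.35), and its other probe set was at −0.51. Rbbp4 had levels of 11.30, 11.16, 11.56 and 11.34 in control and of 11.85, 11.62, 11.58 and 11.52 in RST mice. RST mouse 4 lay below control mouse 3, and otherwise the groups were apart. The difference of the means was 0.30 on the log2 scale (standard error 0.24, limma adjusted p = 0.56), and all 4 of its probe sets lay between 0.17 and 0.32. The brightest Rbbp4 probe set is of a type whose probes may also match other sequences. The brightest probe sets of Mta3, Hdac2, Hdac3, Sirt5, Kat2b, Kat5 and Kat8 have names that end in _s_at. Whether these match other sequences was not checked.

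The bases just before the transcription start are shown for 5 genes, from RefSeq (GRCm38.p6): Sirt1 and Rcor1, called lower, Sin3b, higher at an unadjusted p under 0.05, and the related genes Rbbp4 and Rbbp7, whose means went opposite ways. Each is written 5′ to 3′ on the strand of the gene, up to 250 bases, cut to 161 bases for Rbbp4 where a neighboring gene begins. Capitals mark the letters CACCC (the core bound by KLF factors), GATAA (GATA factors), CCAAT and CCGGAA (ETS factors), searched on both strands, so that GGGTG and ATTGG are the reverse forms. No 2 of these motifs overlapped in the bases shown. Sirt1 lies at chr10:63339036-63339285 (minus strand), Rcor1 at chr12:111039117-111039366 (plus), Sin3b at chr8:72723020-72723269 (plus), Rbbp4 at chr4:129335371-129335531 (minus) and Rbbp7 at chrX:162760122-162760371 (plus).
Sirt1: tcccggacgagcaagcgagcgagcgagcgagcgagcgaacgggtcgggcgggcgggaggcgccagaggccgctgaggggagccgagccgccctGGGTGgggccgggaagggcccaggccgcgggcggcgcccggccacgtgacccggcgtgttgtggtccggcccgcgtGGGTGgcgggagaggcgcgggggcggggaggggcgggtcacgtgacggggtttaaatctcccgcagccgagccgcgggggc
Rcor1: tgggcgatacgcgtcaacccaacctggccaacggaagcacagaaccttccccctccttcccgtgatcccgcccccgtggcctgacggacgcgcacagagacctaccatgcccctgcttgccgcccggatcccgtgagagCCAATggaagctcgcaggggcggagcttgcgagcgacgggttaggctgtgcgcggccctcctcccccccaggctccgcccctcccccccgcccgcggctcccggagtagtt
Sin3b: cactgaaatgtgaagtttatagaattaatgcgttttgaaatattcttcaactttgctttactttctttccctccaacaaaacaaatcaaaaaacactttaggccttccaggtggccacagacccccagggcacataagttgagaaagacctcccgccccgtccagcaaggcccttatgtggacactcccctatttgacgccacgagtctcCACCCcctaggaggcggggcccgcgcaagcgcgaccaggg
Rbbp4: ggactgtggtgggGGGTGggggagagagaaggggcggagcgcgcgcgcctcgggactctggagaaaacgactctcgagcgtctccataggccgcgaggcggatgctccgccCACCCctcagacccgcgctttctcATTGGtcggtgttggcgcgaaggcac
Rbbp7: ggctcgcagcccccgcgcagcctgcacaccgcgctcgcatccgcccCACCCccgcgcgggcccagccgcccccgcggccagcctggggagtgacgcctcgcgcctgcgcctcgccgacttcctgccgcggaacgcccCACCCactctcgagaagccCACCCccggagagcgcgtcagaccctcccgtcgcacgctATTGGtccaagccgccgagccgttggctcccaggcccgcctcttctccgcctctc
The bases shown held CACCC 2 times in Sirt1 and in Rbbp4, 3 times in Rbbp7 and 1 time in Sin3b, and not in Rcor1. CCAAT stood 1 time in Rcor1, Rbbp4 and Rbbp7, and GATAA and CCGGAA in none of these windows. Promoters were matched for 31 of the 36 genes, with 42 starts. Taken uncut, with 250 bases before each of the 42 starts, 61.9% held CACCC against 52% of all 32851 promoters, 16.7% held GATAA against 22.6%, 45.2% held CCAAT against 33.8%, and 19% held CCGGAA against 12%. A gene with higher levels (Sin3b) and genes with lower levels (Sirt1, Rbbp7) both carried CACCC. This motif is common, in 52% of all promoters, and binding of KLF factors was not tested.

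Deacetylases and acetyltransferases differed little from each other. The median log2 fold change was −0.52 over 16 deacetylases, −0.39 over 10 acetyltransferases and −0.50 over 9 corepressor partners, or −0.27, −0.14 and −0.26 relative to the median gene. These medians moved with the setting. Deacetylases and acetyltransferases were at −0.17 and −0.10 after quantile normalization, at −0.19 and −0.15 with the hybridization controls as a covariate, and at −0.44 and −0.23 without RST mouse 4. Their order turned without RST mouse 3, at −0.41 and −0.53, without RST mouse 2, at −0.50 and −0.53, and without control mice 1 and 2, at −0.10 and −0.17. The rule called 5 of 16 deacetylases (31.2%), none of 10 acetyltransferases and 3 of 9 corepressor partners (33.3%), against 15.6% of all genes. Without RST mouse 4, Hdac2 and Sirt7 were the only deacetylases called. Without control mouse 1 or control mouse 2, Sirt7 was the only one. A probe set of Kat5 that was not its brightest, at −1.09, also met the rule. To compare the first 2 classes within each mouse, the mean level of the deacetylases minus that of the acetyltransferases was taken, each gene centered on its mean over the 8 mice, so that an offset of a whole array cancels. This difference was 0.081, 0.16, 0.067 and −0.12 in control mice 1 to 4 and −0.028, 0.11, −0.16 and −0.11 in RST mice 1 to 4. The groups overlapped, and the highest and the lowest values were control mouse 2 and RST mouse 3. The group means were 0.047 ± 0.12 (SD, n = 4) in control and −0.047 ± 0.12 (SD, n = 4) in RST mice, a difference of −0.093, less than the spread between mice, and it ran from −0.15 to −0.0085 with 1 mouse left out. The members were chosen with results known, so no p is given for this score. Both classes and the median gene were lowest in RST mouse 4, and the cause was not tested. RST mouse 4 was at −0.88 for deacetylases, −0.78 for acetyltransferases and −0.49 for the median gene. Control mice 1 and 2 were at 0.51 and 0.49 for deacetylases, against 0.23 and 0.27 for the median gene. Relative to the median gene, the deacetylases were at 0.096 ± 0.18 in control and −0.13 ± 0.21 in RST mice (SD, n = 4). The acetyltransferases went the same way, at 0.049 ± 0.12 in control and −0.088 ± 0.16 in RST mice (SD, n = 4). Both scores overlapped between the groups. They set a mean over a class against a median over all genes.

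**Figure D3:**
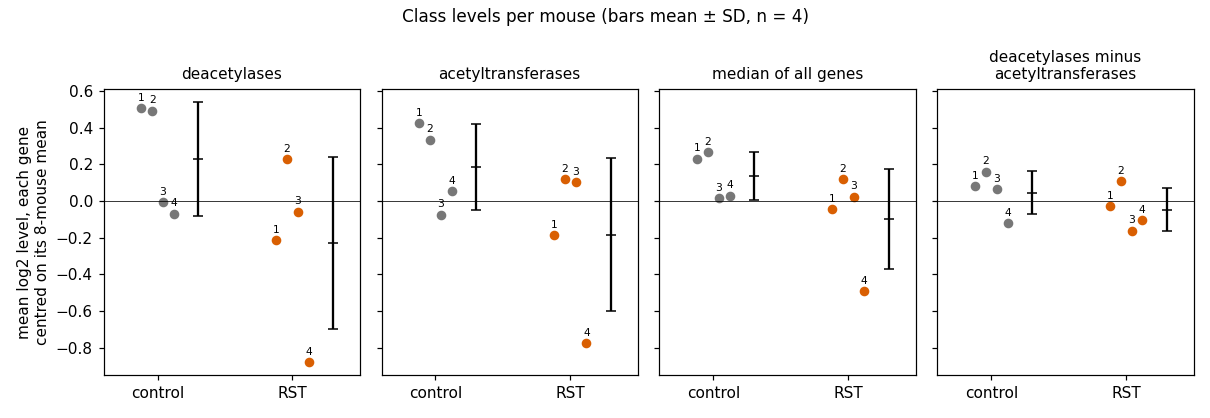
Mean log2 level (y axis) of 16 deacetylases, 10 acetyltransferases, the median of all tested genes, and the difference of the first 2, each gene centered on its mean over 8 mice, 1 point per mouse labeled by its number, with mean ± SD in black. RST mouse 4 is low in the first 3 panels, and the groups overlap in the difference (0.047 in control and −0.047 in RST mice).

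Some related genes had means that lay on opposite sides of 0. For 10 pairs of related genes, some of them with both means lower, the levels were compared within each mouse. Rbbp4 minus Rbbp7, each centered on its mean over the 8 mice, was −0.55, −0.97, 0.072 and −0.38 in control mice 1 to 4 and 0.77, 0.56, 0.032 and 0.46 in RST mice 1 to 4. Only control mouse 3 and RST mouse 3 overlapped. Mta3 minus Mta2 was −0.94, −1.54, −0.42 and 0.078 in control mice and 1.13, 0.41, 0.76 and 0.51 in RST mice, with no overlap. Mta3 minus Mta1 and Sin3b minus Sin3a differed by 1.44 and 0.76 between the groups and overlapped. Crebbp minus Ep300 differed by 0.83, with RST mouse 4 at 1.41 and the other RST mice between −0.11 and 0.41. Hdac6 minus Hdac10 differed by 0.69. In the other pairs both genes had lower means, and Hdac2 minus Hdac1 differed by 0.13, Kat2a minus Kat2b by −0.0070, Kat6a minus Kat6b by −0.40 and Hdac5 minus Hdac4 by −0.10, all with overlap. Only 1 of the 10 pairs was apart between the groups. These pairs were chosen after their values were seen, so the differences are a description with no test. They hold for the brightest probe sets only. The probe sets of Crebbp, Sin3a, Sin3b, Mta1, Kat2b and Hdac4 pointed both ways. Mta3 minus Mta2 rests on 1 probe set of Mta3, and its other tested one was at 0.13, with overlap between the groups.

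**Figure D4:**
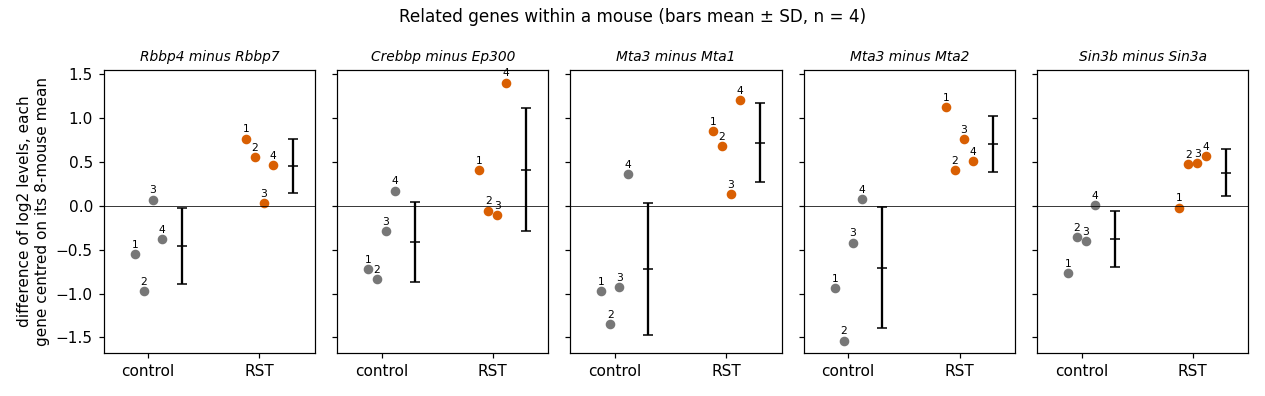
Difference of the log2 levels of 2 related genes within a mouse (y axis), each gene centered on its mean over 8 mice, for 4 control (grey) and 4 RST mice (orange) labeled by number, with mean ± SD in black. At the brightest probe sets, Mta3 minus Mta2 is apart between the groups, at −0.70 in control and 0.70 in RST mice on average, and the other pairs overlap.

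Probe sets of one gene lie on different parts of its transcripts and need not move together. Of 17 genes with more than 1 tested probe set, 8 had all probe sets on one side of 0 and 9 had probe sets on both. Kat5 (−1.09 and −0.68), Kat6a (−0.71 and −0.63), Rbbp7, Rcor1, Rbbp4, Mta3, Kat2a and Hdac2 were those on one side. The widest spread within a gene was that of Crebbp, from −0.76 to 0.45. Kat7 was at −0.66 at its brightest and at 0.46 at its other tested probe set, and Sin3b ranged from −0.37 to 0.65. For these genes the direction depends on the probe set. Of the 63 probe sets, 12 were called, 10 lower and 2 higher, where 13.3% of all probe sets were called, 10.4% lower and 2.89% higher. Beside the genes already given as called, these included a probe set of Kat5 and of Sin3b.

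**Figure D5:**
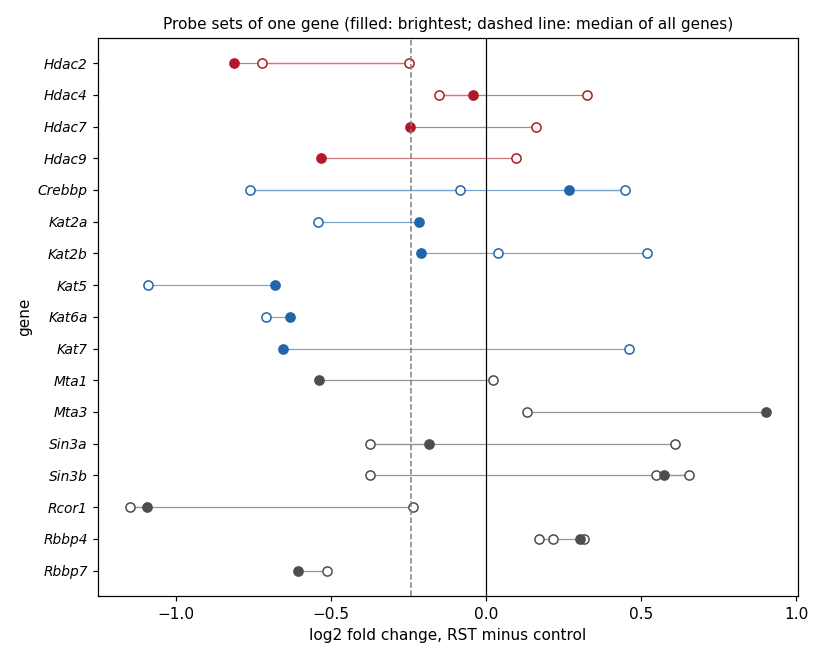
Log2 fold change (RST minus control, x axis) of every tested probe set of the 17 genes (y axis) that have more than 1, filled where it is the brightest, colored as deacetylase (red), acetyltransferase (blue) or corepressor partner (grey). The probe sets of Rbbp4 all lie above 0 and those of Rbbp7 below it, and those of Crebbp run from −0.76 to 0.45.

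The subunits that work with these enzymes were listed separately. Of 37 measured subunits of acetyltransferase complexes (39 listed), 33 had a lower mean, 13 were called lower and 1 higher, against 12.8% and 2.8% of all genes, and none passed an adjusted p under 0.05 in limma. Without RST mouse 4, 7 were called lower and 2 higher, when 6.78% of all genes were called lower. The numbers were 5 and 1 without control mouse 1 (5.64% of all genes lower), 4 and 1 without control mouse 2 (5.88%), 0 and 1 without both (2.32%), and 8 and 1 without RST mouse 1 (8.83%). They were 7 and 2 after quantile normalization (7.44%) and 2 and 1 with the hybridization controls as a covariate (5.27%). Brpf3, a scaffold of the Kat7 complex, had the smallest p and was higher, with levels of 8.32, 8.07, 7.85 and 8.96 in control and of 9.48, 9.83, 8.81 and 9.43 in RST mice (log2 fold change 1.09, standard error 0.32). RST mouse 3 lay below control mouse 4. Yeats4, a subunit of the Kat5 complex that binds modified histones, was at −1.04 (standard error 0.33) and Ing3, of the same complex, at −0.83 (standard error 0.27). Neither overlapped between the groups.

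Of 24 measured deacetylase complex subunits (28 listed), 19 had a lower mean, 3 were called lower and none higher, a share of 12.5% near that of all genes. The 28 listed genes also held Sirt4, itself a sirtuin, which was below the filter and is not among the 24. Sap130 of the SIN3 complex was at −1.31 (standard error 0.38), Rcor3, a relative of Rcor1, at −1.12 (standard error 0.39) and Arid4a, a SIN3 partner, at −0.83 (standard error 0.34). Of 16 measured readers of acetylated lysine (17 listed), 14 had a lower mean, 3 were called lower and 1 higher, a share of 25% against 15.6% of all genes. After quantile normalization 1 of the 16 readers was called lower and 1 higher, when 12.8% of all genes were called. With the hybridization controls as a covariate 2 readers were called lower and none higher, when 7.62% of all genes were called. Without RST mouse 2, 5 readers and 5 deacetylase complex subunits were called lower, when 20.6% of all genes were, and without control mice 1 and 2, 1 reader and none of those subunits was, when 2.32% were. Brd8 (−1.12, standard error 0.33) and Brd9 (−0.90, standard error 0.28), bromodomain subunits of the Kat5 and SWI/SNF complexes, did not overlap between the groups. Mllt3, a YEATS domain reader, was higher at 0.75 (standard error 0.30).

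Markers of blood cell types moved with the groups as well. The summed level (log2 of the summed intensities) of 8 B cell markers of 10 listed was 11.49 to 12.50 in control and 10.81 to 11.14 in RST mice. That of 10 T cell markers of 11 was 10.82 to 11.41 against 9.85 to 10.80, that of 6 NK cell markers of 7 was 10.67 to 11.39 against 10.03 to 10.44, and that of 6 monocyte markers of 8 was 11.25 to 12.18 against 10.53 to 11.29. That of 12 reticulocyte and erythroid markers of 14 went the other way, at 14.40 to 14.73 in control and 14.80 to 14.94 in RST mice. Platelet markers (7 of 8 listed) were at 13.33 to 13.52 against 13.29 to 13.63, and neutrophil markers (9 of 10) at 12.95 to 13.77 against 12.04 to 13.57. Those of eosinophils and basophils (6 of 7) were at 6.68 to 8.47 against 5.73 to 6.31. Pax5 of the B cell list and Fcer1a of the basophil list were below the median of the arrays. The part of cell composition in the values of Mta3, Sin3b, Rbbp4 and the lower genes was not tested.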

How the data were processed

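RNA of whole blood (30 ng, amplified and biotin-labeled) from 4 RST and 4 control mice was hybridized to Affymetrix mouse genome GeneChips. Deposited were log2 expression values of each probe set, which the authors had background-corrected, normalized and summarized. For this step the submitters' notes list Expression Console 1.2.0.20, RMA and Partek, whereas the methods give GSRMA, and the array quantiles were not equal. Presence calls were not used here. From these values, 64 control probe sets were removed, and a probe set was tested if 2 or more of a group's 4 arrays had it brighter than the array median (25084 were). The groups were fitted with limma 3.58.1 (R 4.3.3, lmFit, eBayes) with Benjamini-Hochberg adjustment, and for single values all relabellings of the 4 and 4 mice were enumerated (exact permutation test). A call needed a fold beyond 1.5 with p below 0.05, unadjusted.

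Gene names came from the platform annotation, brought up to date by Entrez identifier from RefSeq's GRCm38.p6 genes (34754 probe sets matched). A gene stands at its brightest tested probe set. By rule, genes given with every mouse are those with an unadjusted p below 0.05 or groups that do not overlap, and the brightest of each subclass, and of the further lists the 3 genes with the smallest p are named. Per-mouse values of Ep300 and the pairs of related genes were chosen after they were seen. The members and lists were chosen with earlier results of these data known. The fit was tested on simulated data. Alternatives changed the filter, normalization, floor, prior, weights, test, probe set rule, a replicate block, a covariate and each mouse in turn. The number of arrays limits the precision. Slide and scan date were not given in the sources used here. Figures were drawn with matplotlib 3.10.9.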

Additional observations from a re-analysis of the deposited data

Results flagged for a closer look

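In 5 of 78 groups of 4 mice tested, 1 mouse stood apart from the others by Dixon's criterion, which chance meets in about 1 of 20 groups. In RST mice, RST mouse 4 was low for Hdac5 (4.50, others 5.85 to 6.10) and for Kat2a (3.26, others 4.28 to 4.48). RST mouse 2 was high for Mta2 (4.06, others 3.37 to 3.45) and RST mouse 3 was high for Rbbp7 (7.76, others 7.27 to 7.30). In control mice, control mouse 2 was low for Hat1 (6.40, others 6.91 to 7.00). The 78 groups were those of the 35 genes and of 4 class scores.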

How the results depend on the processing

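The number of probe sets called was 3337, and became 5539 with array weights, 2091 with the hybridization controls as a covariate and 856 without control mice 1 and 2. It ran from 1731 to 4933 with 1 mouse left out. At an adjusted p under 0.05 the number was 0, and 36 with a trended and robust prior, none of them a gene of the list at its brightest probe set. The number of listed genes called (8, or 22.9%, against 15.6% of all genes) was 5 after quantile normalization (14.3% against 12.8%) and with the mean over the probe sets of a gene (14.3% against 14.7%), 4 with the methods' analysis of variance (11.4% against 10.5%), 2 with the hybridization controls as a covariate (Hdac2 and Mta3, 5.71% against 7.62%), 0 without control mice 1 and 2 (against 3.11%), and 2 to 11 with 1 mouse left out. The median of the deacetylases was −0.10 without control mice 1 and 2. That of the corepressor partners was −0.14 with the hybridization controls as a covariate and −0.13 without control mice 1 and 2. Of the genes given with every mouse, those reversed in sign were Hdac2 (0.044) and Hdac7 (0.11) after quantile normalization, Sirt2 (−0.19) with scaling to the control probe sets, Crebbp (−0.034) with the mean over its probe sets, and Kat2b with quantile normalization (0.12) and with that mean (0.12). For Hdac2 the brightest probe set changed. Scaling to the control probe sets moves every fold change by the same amount, which took Sirt2 below 0. The means of Crebbp and Kat2b take in their other probe sets. For Hdac7 and Kat2b after quantile normalization the cause was not tested. Where all mice were kept, other listed genes with a lower mean turned higher too, Kat6b with array weights, Hdac4, Hdac5, Sirt3, Kat6b and Sin3a after quantile normalization, Hdac4, Hdac5, Sirt3 and Kat8 with the covariate, and Hdac4 and Sin3a with the mean over probe sets. With scaling to the control probe sets, Hdac6 turned lower. With 1 mouse left out, Hdac2 ran from −0.88 to 0.032, Sirt2 from −0.27 to 0.45 and Kat2b from −0.49 to 0.16. Numbers shared by RST and control mice did not pair them (correlations of deviations −0.24, 0.42, 0.046 and 0.20), and with the replicate block 7 listed genes were called, all among the 8. With quantile normalization the median gene moved from −0.24 to −0.050, and with scaling to the control probe sets to −0.45.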
